A study of Homo sapiens with 8 samples.

Results

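Transcription factors that set T-cell identity, or that drive T-cell acute lymphoblastic leukaemia (T-ALL) when expressed out of place, were followed in a leukaemia line during its response to a glucocorticoid. The list held 10 genes: TAL1, LMO2, GATA3, TCF7, LEF1, BCL11B, MYB, IKZF1, TOX and TCF12. Members were all probe sets, the groups of short probes that each report on a transcript, whose only gene symbol in the platform annotation was one of these. This gave 32 probe sets of 9 genes, out of 54613 probe sets tested and 19775 genes with a symbol of their own. No probe set carried TCF7 as its symbol in the annotation used, so TCF7 is not analysed here.

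The cells were CCRF-CEM-C7-14, a clone of the human T-ALL line CCRF-CEM. Before treatment the serum in the medium was replaced by one stripped of steroids with charcoal, and the cells were then given 1 µM dexamethasone, a synthetic ligand of the glucocorticoid receptor. RNA was taken from untreated cells at 0 h (3 arrays) and after 2 h (3 arrays) and 10 h (2 arrays) of hormone. All groups shared the line and the change of medium, and no vehicle-treated arrays at the later times were used here, so hormone and time cannot be told apart. The labels call the arrays of a time biological replicates and do not say whether each had a culture of its own, so the p-values here reflect only how far these arrays spread, which may be technical.

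TAL1 is a basic helix-loop-helix protein that is silent in normal late thymocytes and is switched on in many T-ALLs. It binds DNA with an E protein such as TCF12, and the pair is joined by the bridging protein LMO2 and by GATA3. MYB is a known member of the same self-sustaining circuit in T-ALL. TCF7 and LEF1 are related high-mobility-group (HMG) box factors that start the T-cell programme and carry Wnt signals, and TOX is an HMG box factor of thymocyte selection. BCL11B and IKZF1 are zinc finger factors; BCL11B fixes T-cell commitment, and IKZF1 (Ikaros) is a lymphoid regulator and tumour suppressor.

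Values were log2 expression per probe set, in which 1 unit is a 2-fold change. Array medians lay between 4.68 and 5.01, and the number of arrays limits the precision. The 3 arrays with the lowest medians, 0 h replicate 2, 2 h replicate 3 and 10 h replicate 1, stood apart from the other 5 on the first principal component (36.9% of the variance). They include an array of each time, and the changes below are also given within these sets where they bear on a result. Bacillus control probe sets, which have no human target, reached 4.73. Of the 32 member probe sets 25 averaged above that level, beside 52.4% of all probe sets. These 25 included at least 1 for each of the 9 genes. Of the markers used to check the label of a T-cell line, 9 of 10 T-lineage genes lay above the controls, CD3D at 13.0 among them, while the T-cell gene CD2 averaged 4.72. Of the B-lineage markers 4 of 7 were above, CD79A at 8.78 among them, and of the myeloid, erythroid and natural killer markers 2 of 7, 3 of 5 and 3 of 6. The summed log2 level of the 10 T-lineage markers ran from 90.9 to 93.3 at 0 h, from 90.8 to 94.0 at 2 h and from 92.4 to 92.9 at 10 h.

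LEF1 was the only one of these transcription factors with a probe set past the threshold, and it was higher after 10 h of dexamethasone. The threshold was an adjusted p (Benjamini-Hochberg, across all 54613 probe sets) below 0.05 in a single limma fit of the 8 arrays. It was passed by 1 of the 32 member probe sets at 10 h against 0 h, where 0.251% of all probe sets were called. That member was higher, as were 0.245% of all probe sets, and 0 members were called lower, with 0.00549% of all. At 2 h against 0 h, 0 of the 32 passed, with 0.00916% of all probe sets called, and at 10 h against 2 h again 0 passed, with 0.108% called (0.106% higher and 0.00183% lower). At an unadjusted p below 0.05 in limma, 2 members were found at 2 h against 0 h (1.10% of all probe sets), 4 at 10 h against 0 h (2.68%) and 4 at 10 h against 2 h (2.53%). The last 4 were the 3 LEF1 probe sets, higher (1.11% of all), and BCL11B 222895_s_at, lower (1.42% of all). The median log2 fold change of the members at 10 h against 0 h was −0.01, beside −0.03 over all probe sets. In bulk RNA, a change in the share of cells that express a gene cannot be told apart from a change of RNA per cell.

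LEF1 was read by 3 probe sets, all above the controls at every time. Its promoter is shown because LEF1 carried the called change. That of BCL11B is shown beside it, because 2 of its 3 probe sets had the lowest log2 fold changes of the members at 10 h against 0 h. The sequences are the 250 bases before the RefSeq start in GRCh38.p14, at chr4:108166302-108166551 on the minus strand for LEF1 and at chr14:99272198-99272447 on the minus strand for BCL11B, each 5′ to 3′, with capitals marking the core hexamer of glucocorticoid receptor sites (AGAACA, or TGTTCT on the other strand).
LEF1: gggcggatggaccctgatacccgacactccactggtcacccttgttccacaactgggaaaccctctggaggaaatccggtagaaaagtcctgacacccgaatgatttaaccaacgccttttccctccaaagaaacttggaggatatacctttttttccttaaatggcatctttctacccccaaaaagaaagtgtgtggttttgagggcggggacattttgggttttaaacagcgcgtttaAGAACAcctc
BCL11B: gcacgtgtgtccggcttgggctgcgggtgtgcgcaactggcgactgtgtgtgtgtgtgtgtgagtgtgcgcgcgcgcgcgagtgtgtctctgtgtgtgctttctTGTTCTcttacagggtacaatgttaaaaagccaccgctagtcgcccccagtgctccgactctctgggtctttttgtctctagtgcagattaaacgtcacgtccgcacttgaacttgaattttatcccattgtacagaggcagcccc
The hexamer lay 10 bases before the start in LEF1 and 146 bases before it in BCL11B, counted from its first base. The same letters were found in 12.4% of the 35116 promoter windows of this length, on either strand, so a match is common and is a description only. None of the other motifs searched was in either window: the TCF and LEF motif ATCAAAG or TTCAAAG (5.94% of windows, either strand), the GATA motif AGATAA (9.17%) and the E-box CAGATG, the form favoured by TAL1 with an E protein (12.2%).

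Probe set 210948_s_at carried the call. Its log2 expression was 8.61, 8.32 and 7.72 in untreated cells at 0 h, 8.81, 8.66 and 8.60 at 2 h, and 9.48 and 9.69 at 10 h. Both 10 h arrays lay above all arrays of the other times, whereas the 2 h arrays overlapped with those at 0 h through a single pair, 8.60 at 2 h and 8.61 at 0 h. The log2 fold change at 10 h against 0 h was 1.37 ± 0.24 (SE). This is 2.58-fold (95% interval 1.81 to 3.68), with an adjusted p of 0.0211. At 2 h against 0 h it was 0.47 ± 0.21 (adjusted p = 1.00), and at 10 h against 2 h 0.89 ± 0.24 (adjusted p = 0.580). The moderated F test for any time gave an adjusted p of 0.0815 for this probe set.

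The other LEF1 probe sets had smaller values in the same direction at 10 h and did not pass. Probe set 221557_s_at had 6.90, 6.94 and 6.16 at 0 h, 7.52, 6.54 and 7.02 at 2 h, and 7.34 and 8.10 at 10 h. Its log2 fold change at 10 h against 0 h was 1.06 ± 0.31 (adjusted p = 0.586). Both 10 h arrays were above the untreated ones, but the lower of them was below the highest 2 h array. Probe set 221558_s_at, the brightest of the gene, had 11.91, 11.81 and 11.85 at 0 h, 11.79, 11.94 and 11.92 at 2 h, and 12.57 and 12.10 at 10 h. That is a log2 fold change of 0.48 ± 0.20 (SE) at 10 h against 0 h, with a 95% interval of 0.06 to 0.90 (adjusted p = 1.00). The 10 h arrays were again the highest, and the 2 h arrays overlapped fully with 0 h. The intervals of the 3 probe sets, 0.85 to 1.88, 0.40 to 1.72 and 0.06 to 0.90, overlap, and the difference between probe sets was not tested. With the 3 probe sets averaged and p-values adjusted over genes, LEF1 rose by 0.97 ± 0.20 at 10 h against 0 h (adjusted p = 0.0276). With the gene represented by its brightest probe set it had 0.48 and was not called.

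**Figure D1:**
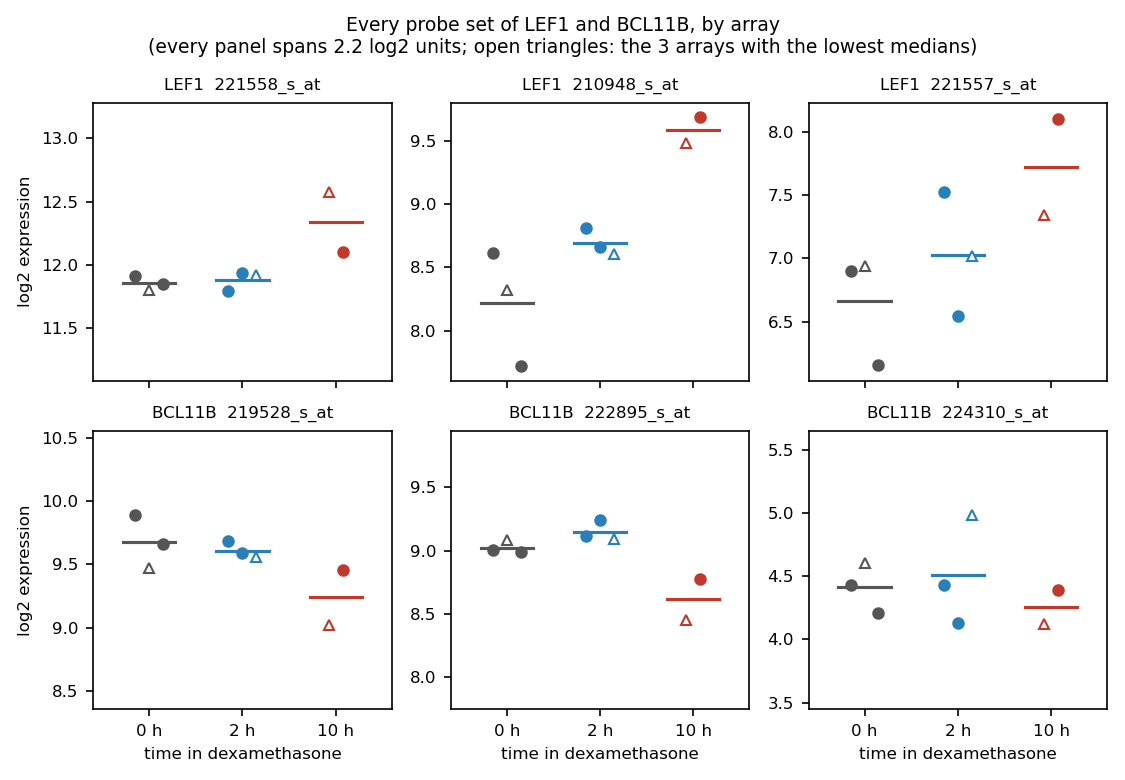
Log2 expression (y axis, 2.2 units in every panel) of the 3 LEF1 and 3 BCL11B probe sets on each array at 0, 2 and 10 h (x axis). Points are arrays, lines are means of 3, 3 and 2 arrays, and open triangles mark the 3 arrays with the lowest medians. Both 10 h arrays of LEF1 probe set 210948_s_at (9.48 and 9.69) lie above all earlier arrays, and those of BCL11B probe set 222895_s_at (8.45 and 8.78) lie below them.

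The LEF1 change was positive on both sides of the split between arrays, and its call was lost when any of several arrays was left out. For probe set 210948_s_at the log2 difference of 10 h minus 0 h was 1.16 in the low-median set, from 1 array of each time. In the other set the difference was 1.52, from 1 array at 10 h and 2 at 0 h. For 221557_s_at it was 0.40 and 1.57, and for 221558_s_at 0.77 and 0.22, so the probe sets were not ordered alike in the 2 sets of arrays. The call was lost without 0 h replicate 3, the untreated array with the lowest value on this probe set (1.12, adjusted p = 0.0534). It was also lost without 10 h replicate 1 (1.47) and without 10 h replicate 2 (1.26). Without either 10 h array, the remaining one is assumed to vary like the other groups. Without all 3 arrays with the lowest medians the value was 1.52 (adjusted p = 0.521). Probe set 210948_s_at had a value of its own in 17 of the 19 alternative settings; it was called in 12 of them and positive in all 17, between 1.11 and 1.56. The other 2 settings give 1 value per gene, which for LEF1 was 0.97 averaged and 0.48 by its brightest probe set.

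**Figure D2:**
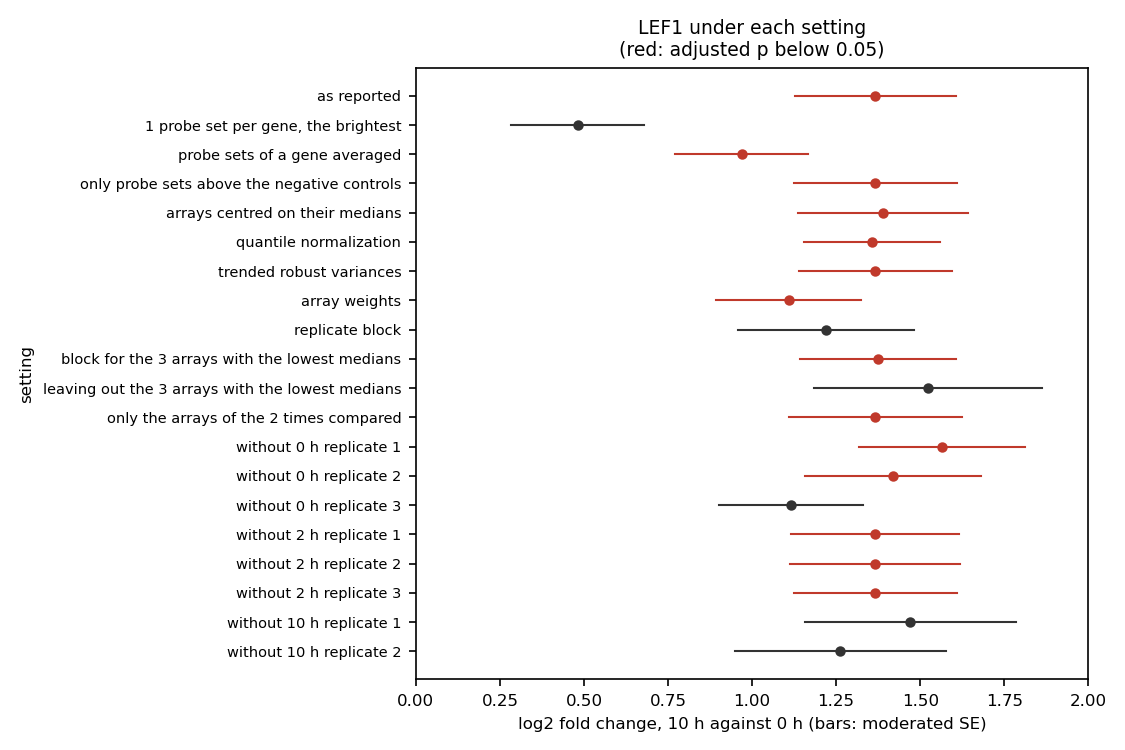
Log2 fold change of LEF1 at 10 h against 0 h (x axis, bars are the moderated SE) as reported for probe set 210948_s_at and under each of 19 alternative settings (y axis), of which 17 refit that probe set and 2 give 1 value for the gene. Red marks an adjusted p below 0.05. Values run from 0.48, where the gene stands by its brightest probe set 221558_s_at, to 1.56 without 0 h replicate 1.

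By the pair of log2 fold changes at 2 h and 10 h, the genes nearest to LEF1 probe set 210948_s_at among 13059 genes above the controls were TAMALIN, PRAG1 and CASTOR1. TAMALIN, which encodes a scaffold protein, had 0.53 at 2 h and 1.32 at 10 h (adjusted p at 10 h = 0.0182). PRAG1, a pseudokinase gene, had 0.38 and 1.36 (adjusted p = 0.0125), and CASTOR1, an arginine sensor gene, had 0.54 and 1.44 (adjusted p = 0.00224). Their distances from 210948_s_at in this plane were 0.07, 0.10 and 0.10 log2 units, all below the SE of the change of that probe set. They were picked as the nearest, so their closeness follows from the choice. The brightest LEF1 probe set, 221558_s_at, had 0.03 at 2 h and 0.48 at 10 h.

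Probe sets 219528_s_at and 222895_s_at of BCL11B had the lowest log2 fold changes of the members at 10 h against 0 h, without passing the test. Probe set 222895_s_at had values between 8.99 and 9.08 on the 3 arrays at 0 h, 9.11, 9.24 and 9.09 at 2 h, and 8.45 and 8.78 at 10 h. Both 10 h arrays were below all earlier ones, and all 2 h arrays were slightly above those at 0 h. Its log2 fold change was −0.41 ± 0.19 (SE) at 10 h against 0 h (95% interval −0.81 to −0.003, adjusted p = 1.00) and −0.53 ± 0.19 at 10 h against 2 h (adjusted p = 1.00). The brightest probe set, 219528_s_at, had 9.89, 9.47 and 9.66 at 0 h, 9.68, 9.59 and 9.56 at 2 h, and 9.02 and 9.46 at 10 h. The 10 h arrays were again the lowest, by a margin of 9.46 at 10 h against 9.47 at 0 h, and the log2 fold change was −0.43 ± 0.21 (adjusted p = 1.00). The value of 222895_s_at was −0.63 in the low-median set (1 array of each time) and −0.21 in the other (1 array at 10 h, 2 at 0 h). That of 219528_s_at was −0.45 and −0.32. In the 17 alternatives that keep both probe sets, each had a negative value at 10 h against 0 h, from −0.65 to −0.21, and was called in 0 of them. The third BCL11B probe set, 224310_s_at, averaged 4.41, below the highest control, and had −0.16 ± 0.24 at 10 h against 0 h.

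Some probe sets had arrays that did not overlap between times, among the members and among all probe sets. At 10 h against 0 h, 5 of 32 members had both 10 h arrays above all untreated arrays, an arrangement of 5.92% of all probe sets. They were the 3 of LEF1, GATA3 209602_s_at and TAL1 216925_s_at. In 4 members both 10 h arrays were below, as in 6.19% of all probe sets: 2 of BCL11B, TOX 204529_s_at and TCF12 215611_at. At 2 h against 0 h the counts were 2 above (2.77% of all) and 2 below (1.37% of all), and at 10 h against 2 h they were 5 above (5.0% of all) and 3 below (8.35% of all).

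**Figure D3:**
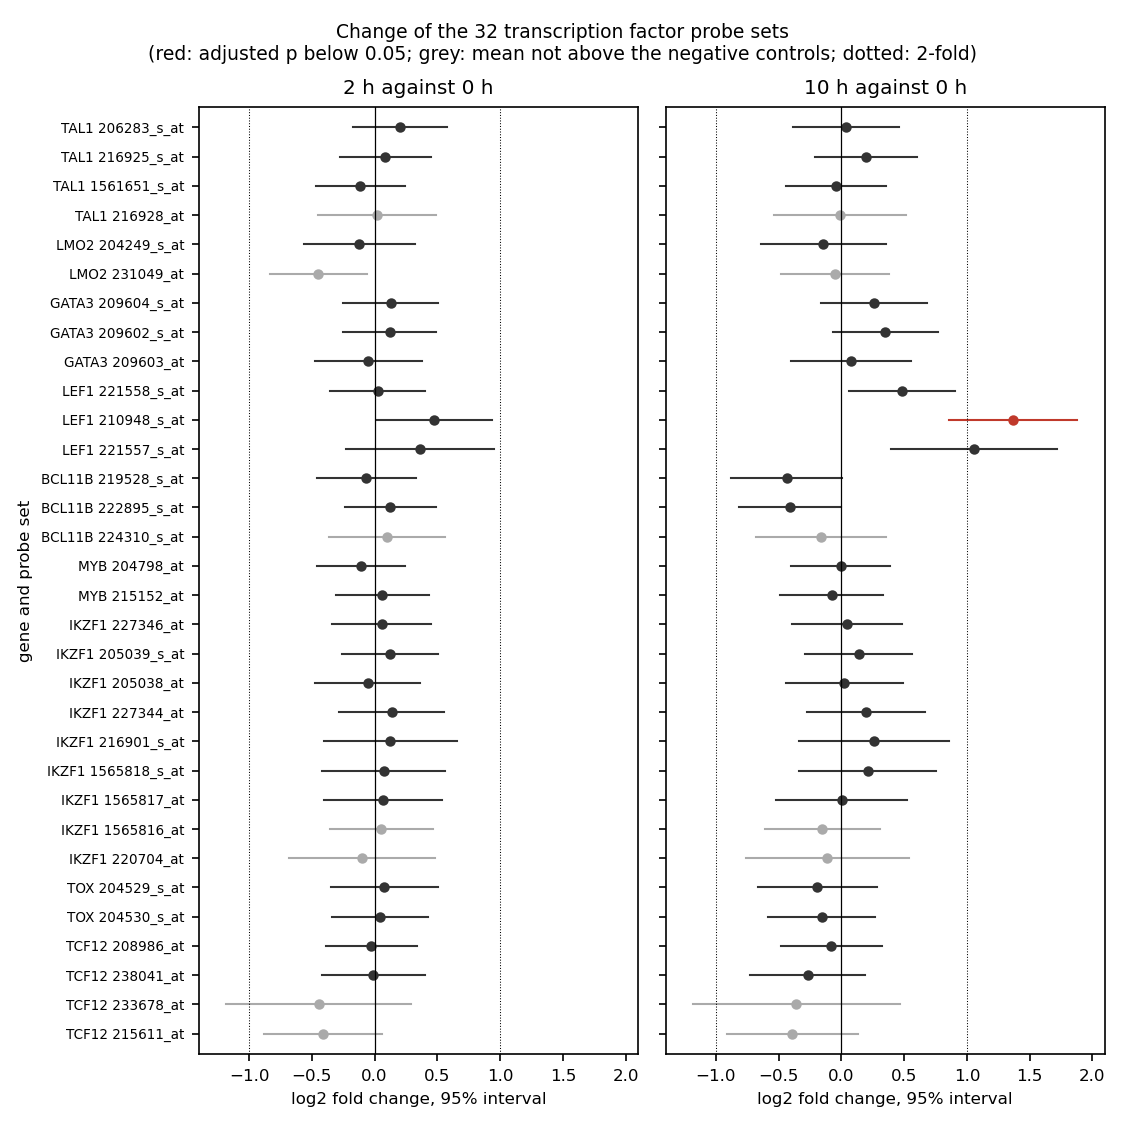
Log2 fold change with its 95% interval (x axis) of the 32 member probe sets (y axis) at 2 h against 0 h and 10 h against 0 h. Red marks an adjusted p below 0.05 over 54613 probe sets, grey marks a mean not above the highest Bacillus control value, and dotted lines mark a 2-fold change. LEF1 210948_s_at at 1.37 is the only red point, and 29 of 32 intervals at 10 h lie inside the dotted lines.

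No probe set of the TAL1 complex genes passed at either time. The brightest TAL1 probe set, 206283_s_at, had 8.08, 7.84 and 7.98 at 0 h, 8.27, 8.12 and 8.12 at 2 h, and 7.80 and 8.21 at 10 h. The 2 h arrays were all just above the untreated ones, by 0.20 ± 0.18 (SE; adjusted p = 1.00), and the 10 h arrays spanned the untreated range, at 0.04 ± 0.20. The 95% interval at 10 h, −0.38 to 0.46, is within a 2-fold change in both directions. Of the other TAL1 probe sets, 216925_s_at had 0.20 and 1561651_s_at −0.04 at 10 h against 0 h, and 216928_at was not above the controls.

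LMO2, the bridge between TAL1 and GATA proteins, had 7.99, 7.33 and 7.36 at 0 h, 7.45, 7.60 and 7.26 at 2 h, and 7.25 and 7.58 at 10 h on 204249_s_at. One untreated array was high and all others overlapped, with a log2 fold change at 10 h against 0 h of −0.14 (95% interval −0.64 to 0.35). The second LMO2 probe set, 231049_at, averaged 3.44, below the highest control; it had −0.45 ± 0.18 at 2 h against 0 h, the lowest value among the members at that time (adjusted p = 1.00).

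TCF12, the E protein partner known as HEB, was read best by 208986_at and did not pass. That probe set had 10.48, 10.19 and 10.36 at 0 h, 10.35, 10.30 and 10.30 at 2 h, and 10.16 and 10.37 at 10 h. The groups overlapped throughout, and the log2 fold change at 10 h against 0 h was −0.08 (95% interval −0.48 to 0.32). The dimmer 238041_at had −0.27 ± 0.22, and 233678_at and 215611_at were not above the controls. All 4 TCF12 probe sets had negative values at 2 h and at 10 h against 0 h, and none passed.

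GATA3, a zinc finger factor needed from early thymocytes to helper T cells, had positive values on all 3 probe sets at 10 h against 0 h, none of which passed. The brightest, 209604_s_at, had 11.11, 10.64 and 10.76 at 0 h, 10.96, 11.04 and 10.90 at 2 h, and 11.12 and 11.07 at 10 h. The 10 h arrays lay close to the highest untreated array, and the log2 fold change was 0.26 (95% interval −0.16 to 0.68). Probe set 209602_s_at had 9.44 and 9.34 at 10 h, both above the 9.27, 9.02 and 8.85 at 0 h, a log2 fold change of 0.35 ± 0.20 (adjusted p = 1.00). Probe set 209603_at had 0.08.

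MYB, a factor of progenitor growth, did not pass at either time. On 204798_at it had 11.61, 11.62 and 11.61 at 0 h, 11.38, 11.61 and 11.53 at 2 h, and 11.69 and 11.54 at 10 h. The 10 h arrays lay on both sides of the untreated ones, with a log2 fold change of −0.003 ± 0.19 (95% interval −0.40 to 0.39). Its other probe set, 215152_at, had −0.08 ± 0.19 at 10 h against 0 h.

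IKZF1 had the most probe sets, 9, of which 7 averaged above the controls. The brightest, 227346_at, had 11.38, 10.95 and 11.30 at 0 h, 11.45, 11.26 and 11.09 at 2 h, and 11.17 and 11.34 at 10 h. All times overlapped, with a log2 fold change at 10 h against 0 h of 0.05 (95% interval −0.39 to 0.49). Over the 9 probe sets the change ran from −0.15 to 0.26 at 10 h and from −0.10 to 0.14 at 2 h, with the low ends set by 1565816_at and 220704_at, which are not above the controls. Every group of arrays overlapped with the untreated one.

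TOX had 10.06, 9.81 and 9.89 at 0 h, 10.42, 9.69 and 9.89 at 2 h, and 9.76 and 9.70 at 10 h on 204529_s_at. Both 10 h arrays lay just below the untreated ones, with a log2 fold change of −0.19 (95% interval −0.67 to 0.28, adjusted p = 1.00). The dimmer 204530_s_at had −0.16 ± 0.20.

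Over all members, the 95% interval of the change at 10 h against 0 h lay within a 2-fold change in both directions for 29 of 32 probe sets, beside 96.5% of all probe sets. The exceptions were LEF1 210948_s_at and 221557_s_at, and TCF12 233678_at, which is not above the controls. At 2 h it did so for 31 of 32, beside 98.9% of all, and at 10 h against 2 h for 30 of 32, beside 96.7% of all. These intervals bound the changes and are not a limit of detection. Changes under 2-fold could pass undetected in most members, and larger ones could too. LEF1 221557_s_at, at 2.08-fold at 10 h against 0 h, was not called.

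**Figure D4:**
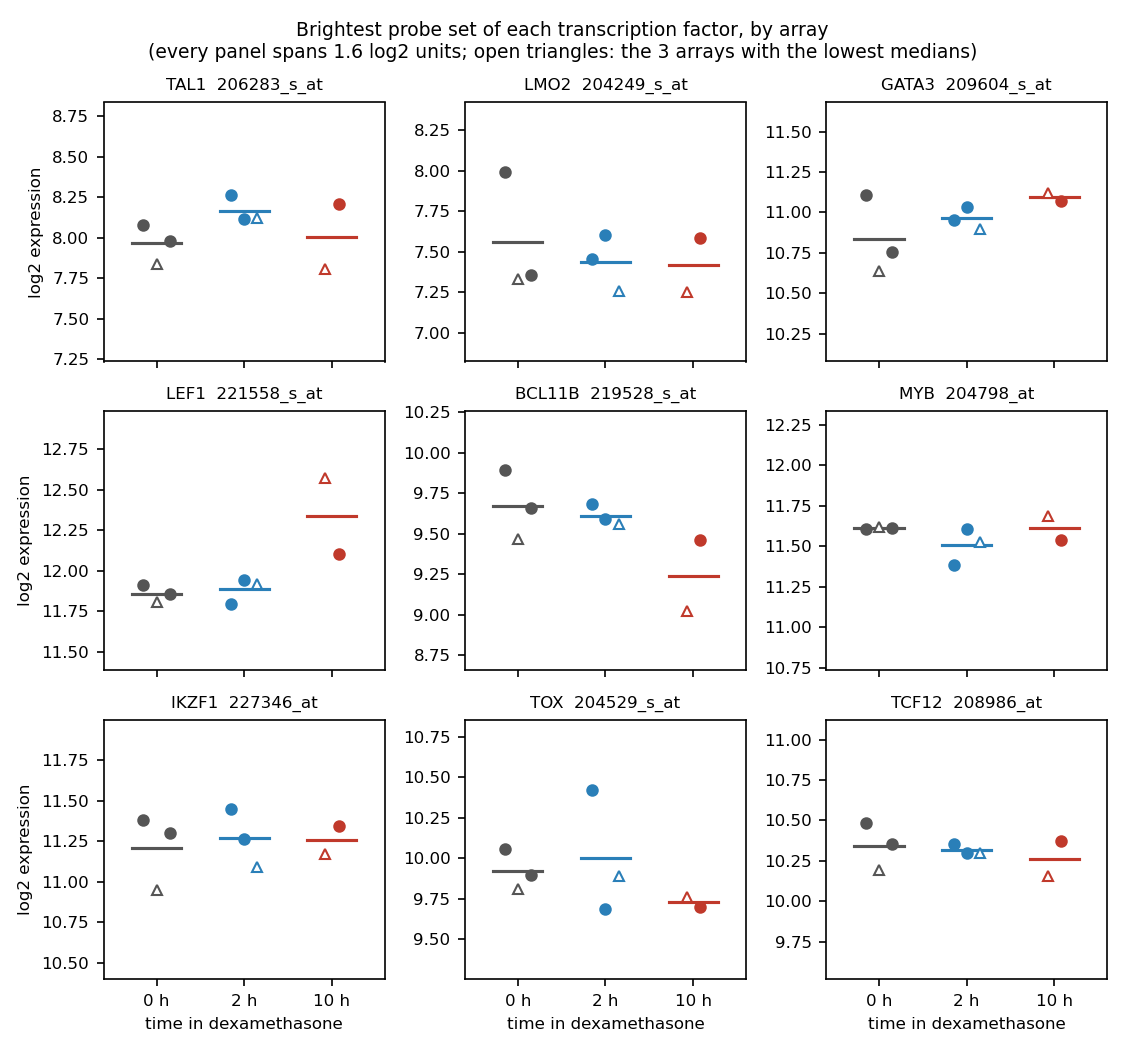
Log2 expression (y axis, 1.6 units in every panel) of the brightest probe set of each of the 9 transcription factors on each array at 0, 2 and 10 h (x axis). Points are arrays, lines are means of 3, 3 and 2 arrays, and open triangles mark the 3 arrays with the lowest medians. LEF1 is highest on both 10 h arrays (12.57 and 12.10) and BCL11B lowest on both (9.02 and 9.46), and the times overlap for TAL1, LMO2, GATA3, MYB, IKZF1 and TCF12 at 10 h against 0 h.

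Relatives, partners and targets of these factors were read from 6 lists of 79 further genes with 244 probe sets. None of the 244 passed in limma in any comparison. At an unadjusted p below 0.05, 1 was higher and 8 were lower at 10 h against 0 h (0.410% and 3.28% of them, beside 1.75% and 0.921% of all probe sets), and 0 were higher and 1 lower at 2 h (beside 0.679% and 0.417% of all). At 10 h against 2 h 2 were higher and 10 lower (0.820% and 4.10% of them, beside 1.11% and 1.42% of all). Named after their values were seen, the 8 lower at 10 h against 0 h were 2 of MEF2C and 1 each of NKX2-5, WT1, CBFA2T3, TCF3, SATB1 and MYC, and the higher one was GSK3B. Among 14 other T-ALL oncogenes, the brightest were NKX2-5, a heart homeobox gene that a translocation into the BCL11B region is known to activate in CCRF-CEM, and MEF2C, a MADS-box factor of immature T-ALL. NKX2-5 averaged 10.05 at 10 h, against 10.58 at 0 h, and its log2 fold change was −0.53 ± 0.22 (adjusted p = 1.00). MEF2C had −0.79 ± 0.21 (adjusted p = 0.374).

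Among 18 E proteins and cofactors, the brightest were CBFB, the RUNX partner, at −0.22 ± 0.20 and TCF3, the E2A protein gene, at −0.05 ± 0.21 at 10 h against 0 h. Another TCF3 probe set, 202648_at, named after its value was seen, had −0.97 (adjusted p = 0.634). All other TCF3 probe sets lay between −0.35 (209152_s_at) and 0.29 (215260_s_at). Of 19 family relatives, SATB1, a chromatin organiser of thymocytes, had −0.59 ± 0.22 and BCL11A, the BCL11B relative, −0.10 ± 0.21. Of 14 Wnt partners, CTNNB1, which encodes the LEF1 coactivator β-catenin, had 0.27 ± 0.25 and TLE5, a Groucho family gene, 0.36 ± 0.21. These brightest probe sets had an adjusted p of 1.00 each.

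No probe set of a target gene was called, while MYC passed where each gene stood by its brightest probe set. Of 7 target genes of the TAL1 complex, the brightest were CDK6, a G1 kinase, at 0.10 ± 0.19 and ALDH1A2, a retinoic acid synthesis enzyme, at 0.22 ± 0.20 at 10 h against 0 h. MYC, in the same list and named here after its value was seen, had −1.01 ± 0.20, with an adjusted p of 0.0569 over probe sets and 0.0300 over genes, each gene by its brightest probe set. Of 9 targets of TCF7 and LEF1, the brightest, CD44, an adhesion receptor, had −0.28 ± 0.24 and TCF7L2, an HMG box relative, −0.22 ± 0.21. AXIN2, a negative regulator of Wnt signalling and named after its value was seen, had −0.09 ± 0.19. The 35 probe sets of this list had a median of −0.09, beside −0.03 over all probe sets. Of them 0 were below an unadjusted p of 0.05 in limma, beside 2.68% of all probe sets. At that share a list of this size would hold few or none. MYC was not in this list, so its value does not enter these counts.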

How the data were processed

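Total RNA of 8 samples was hybridised to single-colour oligonucleotide arrays. The authors deposited log2 expression per probe set, made with RMA per the submitters' processing notes; its version, and whether the arrays were processed together, are not given in the sources used here. Of 54675 probe sets, 62 array controls were left out of the tests. Groups and replicate numbers came from the sample titles. Symbols were those of the platform annotation (41091 with a single symbol, 1801 with several, 11721 with none).

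The other 54613 probe sets entered one fit in R 4.3.3 with limma 3.58.1 (lmFit, contrasts, eBayes; a mean per time, 5 residual degrees of freedom), without a filter on dim probe sets. P-values are two-sided and adjusted by Benjamini-Hochberg over all probe sets; calls were made below 0.05. The fit was tested on simulated data with independent noise, which lack the split between arrays described above. Probe sets differ in brightness for reasons other than RNA amount. Levels were ranked to pick a gene's brightest probe set and the brightest genes to name, and to judge background against the highest of 27 Bacillus controls. No 2 arrays shared more than 0.269% of their values.

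The members, the related lists, the markers and the 19 alternatives were chosen with earlier results of these data known. Genes outside the members were named by rule (in each related list, called genes and the 2 brightest), apart from those said in the text to be named after their values were seen. Genes like a called member were the 3 nearest by their 2 h and 10 h changes. Same-numbered arrays were checked for pairing. Promoters came from RefSeq (GRCh38.p14).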

Additional observations from a re-analysis of the deposited data

How the results depend on the processing

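At 10 h against 0 h, 1 transcription factor probe set was called, and 0 with the brightest probe set of each gene, with the replicate block (LEF1 1.22, adjusted p = 0.0710) and when leaving out the 3 arrays with the lowest medians. Leaving out single arrays gave 0 to 1 (0 without 0 h replicate 3 or either 10 h replicate). No member was called at 2 h against 0 h or at 10 h against 2 h under any of the 19 alternatives. Over all probe sets, 137 were called at 10 h against 0 h, 5 at 2 h against 0 h, 59 at 10 h against 2 h and 105 at any time. With the brightest probe set per gene these were 70 at 10 h against 0 h, 33 at 10 h against 2 h and 56 at any time; with averaged probe sets 72, 27 and 55, and 1 at 2 h. Both settings test fewer features. Without the 3 arrays with the lowest medians they were 34, 1 and 12, and 1 at 2 h, from fewer samples. With a block for those arrays 215 were called at 10 h against 0 h and 92 at 10 h against 2 h. Trended robust variances gave 92 at 10 h against 2 h and 10 at 2 h, and array weights 14 at 2 h; the cause was not tested. Leaving out an array gave 70 to 147 at 10 h against 0 h (70 without either 10 h replicate), 4 to 5 at 2 h, 14 to 70 at 10 h against 2 h (38 without 2 h replicate 2, 20 without 10 h replicate 1, 14 without 10 h replicate 2) and 33 to 113 at any time (50 without 10 h replicate 1, 33 without 10 h replicate 2). The replicate numbers showed no clear pairing of the arrays: deviations of same-numbered arrays correlated at −0.28 to 0.28 over 7 pairs, and of others at −0.18 to 0.29 over 14. The 2 arrays at 10 h deviate from their mean by equal and opposite amounts, so this check cannot settle the pairing. The replicate block gave 108 calls at 10 h against 0 h and 6 at 2 h. Probe sets near the controls limit what can be read from the 7 members not above them: TCF12 233678_at and 215611_at, LMO2 231049_at, BCL11B 224310_s_at, TAL1 216928_at, and IKZF1 1565816_at and 220704_at.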

Other observations

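MEF2C, one of the T-ALL oncogenes in the related lists, was the only gene there with more than 1 probe set below an unadjusted p of 0.05 at 10 h against 0 h, and is given in full after its values were seen. Its brightest probe set, 209199_s_at, had 8.95 and 9.34 at 10 h, against 10.07, 9.78 and 9.95 at 0 h, a log2 fold change of −0.79 ± 0.21 (SE; limma adjusted p = 0.374). Probe set 209200_at had 8.22 and 8.61 at 10 h, against 9.62, 9.06 and 9.45 at 0 h, a change of −0.96 ± 0.23 (adjusted p = 0.211). The dimmest, 207968_s_at, had 6.60 and 7.09 at 10 h, against 7.64, 7.28 and 7.21 at 0 h, a change of −0.53 ± 0.26 (adjusted p = 1.00). Both 10 h arrays were below all untreated arrays on each of the 3 probe sets, an arrangement that 6.19% of all probe sets showed, and none passed the test.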
